A study of Mus musculus with 16 samples.

Results

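A single transcript listed inside the mouse gene Igfbp2, NONMMUT001470.2, was followed across 16 livers. It was found by position: of the 51024 long non-coding transcripts listed for each library, 1 had an interval overlapping the body of Igfbp2 in GENCODE M21. Its level was lowest on high-fat feed, at 2.09 ± 1.28 FPKM, against 15.5 ± 3.79 on ordinary feed, 19.6 ± 12.01 with resveratrol added and 11.3 ± 4.11 with metformin added (SD, n = 4 livers each). FPKM is the number of reads scaled by the length of the transcript and by the reads of the library. The transcript was chosen by these FPKM values, for its low level on high fat and higher level with either drug, so its levels and differences are given as a description and carry no test.

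The mice were C57BL/6J, with the age labelled as postnatal day 21, and each of 4 groups gave 4 livers and 4 libraries. One group ate ordinary feed and the rest ate high-fat feed, of which one also had daily gavage of resveratrol (100 mg/kg) and another of metformin (200 mg/kg). No vehicle gavage is named for the other groups, and the labels do not say when feeding began, for how long it went on or which sex was used. All 4 high-fat titles begin with the same code while every other group has several, and whatever that code stands for cannot be separated here from the diet.

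Igfbp2 encodes a secreted protein that binds insulin-like growth factors (IGFs), the hormones that carry much of the action of growth hormone. The liver is a main source of both IGF1 and circulating IGFBP2. In mice, leptin raises Igfbp2 in the liver, and low circulating IGFBP2 is known to accompany obesity and insulin resistance. Introns are normally removed and degraded after transcription, so reads inside one can come from unspliced precursor RNA or from a separate RNA.

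NONMMUT001470.2 lies on chromosome 1 from 72832881 to 72834402 (GRCm38), and its length of 1522 bases equals its interval, which makes it a single block without introns. Igfbp2 runs on the plus strand from 72824503 to 72852474 and has 4 exons. The block lies wholly in intron 1, which is 24.1 kb long (72824965 to 72849085), and takes up 6.31% of it. It begins 7.92 kb after exon 1 and ends 14.7 kb before exon 2. No annotated gene other than Igfbp2 overlaps it in GENCODE M21. The files give neither a strand for the block nor a value for the Igfbp2 messenger RNA, so the coding gene's own level was not measured here. The values below are therefore those of this stretch of intron, and the direction of the RNA behind them is not known.

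The sequences that frame the intron are shown to place the block in the gene. The first pair are the 30 exon bases on either side of intron 1, from GENCODE M21 (GRCm38, plus strand).
Exon 1, chr1:72824935-72824964: gcgtgggcaccaccccacagcaggttgcag
Exon 2, chr1:72849086-72849115: acagtgatgacgaccactctgagggaggcc
The second pair are stretches before the starts that RefSeq gives to Igfbp2 (GRCm38.p6, plus strand), cut back where an annotated exon begins. Capitals mark the GC box GGGCGG, which Sp1 family factors bind, and the E-box CACGTG.
First promoter, chr1:72824230-72824479: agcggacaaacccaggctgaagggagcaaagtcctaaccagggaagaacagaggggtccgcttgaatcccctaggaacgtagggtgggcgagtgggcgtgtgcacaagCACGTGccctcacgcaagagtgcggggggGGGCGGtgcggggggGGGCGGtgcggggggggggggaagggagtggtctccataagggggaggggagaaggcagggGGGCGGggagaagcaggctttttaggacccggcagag
Second promoter, chr1:72825137-72825321: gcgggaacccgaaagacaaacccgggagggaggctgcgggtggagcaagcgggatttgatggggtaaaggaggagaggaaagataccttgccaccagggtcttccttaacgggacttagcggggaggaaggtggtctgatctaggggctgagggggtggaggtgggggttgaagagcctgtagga

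The first stretch ends where RefSeq begins the main transcript, 8.40 kb before the block, and the second lies inside intron 1, before a start 7.49 kb from the block. The first has 67.2% G and C over 250 bases, with 3 GC boxes and 1 E-box. The second, of 185 bases, has none of the motifs searched. The search covered those 2 motifs, the forkhead motif (spelled GTAAACA) and the TATA box (spelled TATAAA) on both strands, and the sites found did not overlap one another. Of 32851 RefSeq promoter windows of 300 bases, 35.7% held the GC box, 7.15% the E-box, 3.65% the forkhead motif and 13.6% the TATA box. The last 2 were in neither Igfbp2 window.

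**Figure D1:**
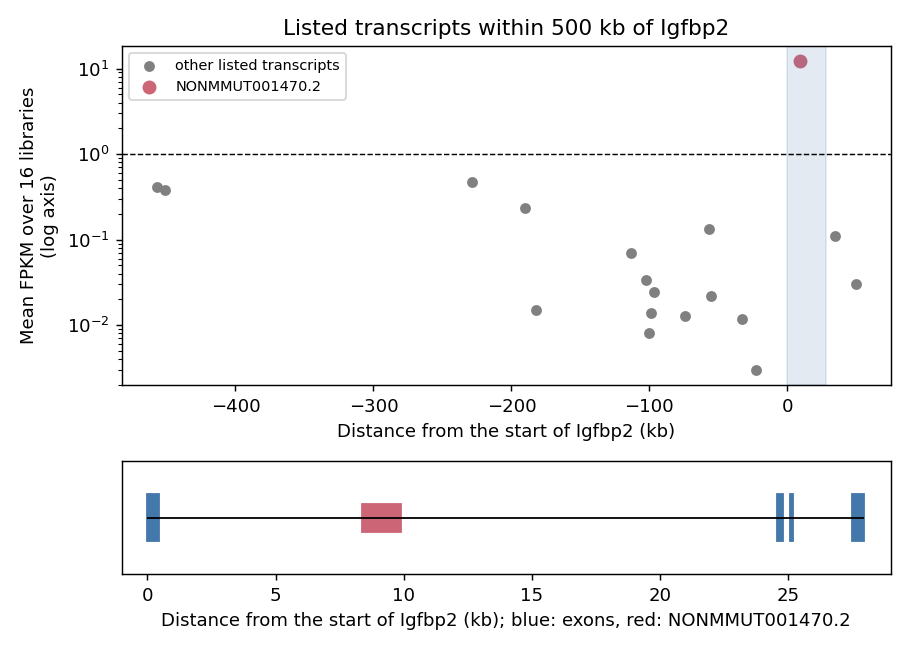
Upper panel, mean FPKM over 16 libraries (log axis) of the 18 listed transcripts within 500 kb of Igfbp2 against the distance of their middle from the gene's start, with the gene shaded and the filter of 1 FPKM dashed. Lower panel, the 4 exons (blue) and NONMMUT001470.2 (red) along the gene. The intronic block, at 12.1 FPKM, is the only point above the dashed line.

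The intronic block stood alone in its neighbourhood. Another 17 transcripts are listed within 500 kb of the gene, and none reached 1 FPKM in any library. Their mean levels over the 16 livers ran from 0.00300 to 0.466 FPKM, against 12.1 for the block. Together they held 1283 reads, against 6518 for the block alone. The nearest, NONMMUT001471.2 (72858067 to 72859857), lies 5.59 kb beyond the end of Igfbp2 in an exon of Igfbp5, which encodes another IGF-binding protein and is transcribed towards Igfbp2. Its level was 0.115 ± 0.0422 FPKM on ordinary feed, 0.115 ± 0.0549 on high fat, 0.132 ± 0.0449 after resveratrol and 0.0820 ± 0.0591 after metformin (SD, n = 4 each). These values rest on 70 reads over all 16 libraries. Two-sided exact permutation tests gave p = 1 for high fat against ordinary feed, 0.686 for resveratrol and 0.429 for metformin against high fat (all 1 after adjustment over the 3). Since 4 libraries against 4 allow no p below 0.0286, a lone difference could not have passed that adjustment, and nothing is read from the tests.

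On ordinary feed the block had 14.1, 18.4, 18.7 and 10.8 FPKM in libraries 1 to 4, from 369, 717, 599 and 330 reads. On high fat it had 2.00, 3.93, 1.15 and 1.29 FPKM, from 69, 186, 40 and 43 reads. Every high-fat value lay below every ordinary-feed value, and the highest of them was library 2. With resveratrol the values were 36.9, 16.6, 9.09 and 15.8 FPKM, from 1188, 607, 288 and 552 reads. Library 1 was the highest of all 16, library 3 lay below the ordinary-feed range and the other 2 within it. With metformin the values were 12.3, 7.16, 16.6 and 9.28 FPKM, from 440, 192, 584 and 314 reads. Libraries 1 and 3 lay within the ordinary-feed range, libraries 2 and 4 below it, and all 4 above the high-fat values. In these whole livers, fewer cells of a type and less RNA per cell cannot be told apart.

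**Figure D2:**
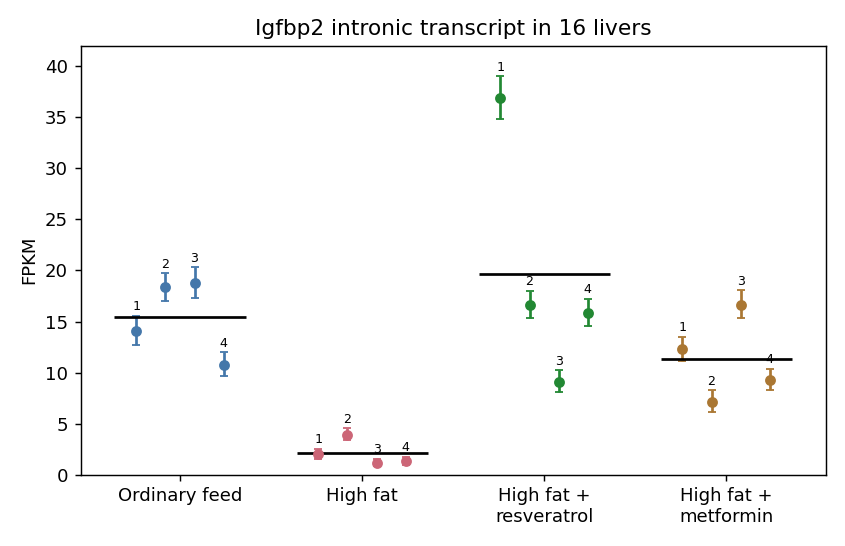
FPKM of NONMMUT001470.2 in each of 16 livers, by group, with exact Poisson 95% intervals of the reads as bars, group means as lines and library numbers above the points. The high-fat livers sit between 1.15 and 3.93, below the other 12, which sit between 7.16 and 36.9.

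The spread between livers was wider than counting error. With the fewest reads, 40 in high-fat library 3, the exact Poisson 95% interval ran from 0.822 to 1.57 FPKM. With the most, in resveratrol library 1, it ran from 34.8 to 39.1 FPKM, and the other 3 livers of its group lay outside it. The highest resveratrol liver was 4.06 times the lowest, a ratio that was 1.74 on ordinary feed, 3.42 on high fat and 2.32 with metformin. Pooled over groups, the SD of log2(FPKM + 1) was 0.56, larger than in 89.2% of the 7413 features that passed the filter. The median was 0.33 among the 500 features nearest to it in level. The intervals cover counting error only.

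In order of mean level the groups ran resveratrol, ordinary feed, metformin and high fat. Resveratrol and ordinary feed overlapped, as did ordinary feed and metformin, and the difference of each pair was near its standard error or under it. Resveratrol minus ordinary feed was 0.19 (SE 0.37) and metformin minus ordinary feed -0.45 (SE 0.37), as log2 differences of log2(FPKM + 1). Without resveratrol library 1 the former was -0.16, so the order of those groups rests on that liver. The mean of the other 3 resveratrol livers was 13.9 ± 4.15 FPKM (SD, n = 3). Resveratrol exceeded metformin by 0.63 (SE 0.37), with overlapping values. The doses of the drugs differ, at 100 and 200 mg/kg per day.

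High fat stood apart from its neighbour in that order. Metformin exceeded high fat by 2.02 (SE 0.37), and the lowest metformin liver, at 7.16 FPKM, lay above the highest high-fat liver, at 3.93. The mean FPKM of ordinary feed was 7.40 times that of high fat (log2 difference of high fat -2.47, SE 0.37). That of resveratrol was 9.38 times the high-fat mean (2.65, SE 0.37) and that of metformin 5.42 times. All of these share the 4 high-fat livers, so they are not independent of each other. The log2 values understate ratios of low levels, since 1 is added to each FPKM.

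Among the 7413 features tested, the block's difference was the 7th lowest between high fat and ordinary feed, the 2nd highest for resveratrol and the 9th highest for metformin against high fat. The median over all features was -0.16, 0.13 and 0.07 in these comparisons. In all, 56 features (0.755%) had every high-fat value below all 12 other libraries, and the block was one of them. These places come from the contrasts for which the gene was picked, and nothing is read from them. With ordinary feed, 99.0% of the 2822 tested intronic features had a lower mean than the block, with resveratrol 99.3%, with metformin 98.8% and on high fat 77.4%. The median intronic feature was at 1.65, 1.53, 1.41 and 1.32 FPKM in those groups.

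The scale differed between libraries. Libraries held 17.2 to 31.1 M reads, of which 15.7% to 23.6% fell on listed transcripts, and 1 read of the block was worth 0.0211 to 0.0381 FPKM. The median ratio of each library to the geometric-mean library was 0.691 in high-fat library 4, which stood apart, and 0.885 to 1.15 in the other 15. After division by that ratio the block had 9.40 to 17.3 FPKM on ordinary feed, 1.13 to 4.17 on high fat, 8.22 to 35.4 with resveratrol and 6.57 to 17.6 with metformin, so the high-fat livers still lay below the rest. This scaling moved the median difference of all features by 0.16 between high fat and ordinary feed and by -0.13 for resveratrol against high fat. The block's own differences were then -2.24, 2.48 for resveratrol and 1.95 for metformin against high fat, with the medians of all features at 0.00. Without high-fat library 4 the high-fat mean was 2.36 ± 1.42 FPKM (SD, n = 3).

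Cell-type markers could be read only through long non-coding transcripts placed at their genes. Of 10 hepatocyte markers 4 had a tested feature (Apoa1, Serpina1a, Cps1 and Hnf4a). Their summed level was 47.7 to 80.8 FPKM on ordinary feed, 58.3 to 83.0 on high fat, 74.1 to 111 with resveratrol and 71.0 to 93.6 with metformin. Most of that sum was the feature at Serpina1a, with group means of 50.9 to 80.2 FPKM, and the members did not move together. The Serpina1a feature also overlaps Serpina1b. The transcript at Cps1, the gene of the first enzyme of the urea cycle, is named after its values were seen. It had 0.276, 4.27, 2.34 and 2.52 FPKM on ordinary feed and 0.140, 0.153, 0.208 and 0.145 on high fat, and fell (-1.36, SE 0.30, limma adjusted p = 0.0126). Its values were 1.65 to 2.70 FPKM with resveratrol and 1.21 to 2.16 with metformin, so its high-fat livers, like those of the block, lay below all the others. The transcript is 630 bases long, and a read per kb of length was worth 0.0321 to 0.0456 FPKM in the high-fat libraries. In ordinary-feed library 1 such a read was worth 0.0580 FPKM. The high-fat values and that of ordinary-feed library 1 thus rest on a few reads each, and the gap between them is within counting error. The fall did not pass with 2 groups per fit (limma adjusted p = 0.0627) or with no filter (0.0556). Against high fat, the Cps1 difference was 1.48 for resveratrol (SE 0.30, limma adjusted p = 0.0714) and 1.14 for metformin (SE 0.30, limma adjusted p = 0.278). Both passed with 2 groups per fit (limma adjusted p = 0.00323 and 0.0380) and without ordinary-feed library 1 (0.000660 and 0.00951), and that of resveratrol also with a pseudocount of 0.1 (0.0295). Ordinary-feed library 1 held the lowest Cps1 value of its group. Since the Cps1 transcript was picked with its values known, no effect of diet or drug is read from its p-values. The transcript at Hnf4a rose on high fat (1.13, SE 0.29, limma adjusted p = 0.0231), while those at Apoa1 (-0.28, SE 0.24, limma adjusted p = 0.440) and Serpina1a (0.17, SE 0.21, limma adjusted p = 0.605) did not pass. Of 6 macrophage markers 1 had one, at Csf1r, with 0.0647 to 0.125 FPKM on high fat and ranges of 0.111 to 3.31, 0.124 to 3.89 and 0.121 to 3.20 in the other groups. The Csf1r feature also overlaps Hmgxb3, so its reads need not come from Csf1r. The median of the Csf1r feature over 16 libraries was 0.131 FPKM, so the upper ends of those ranges rest on a few high livers. Reln alone of 7 stellate markers (0.336 to 1.93 over all groups) and Cidec alone of 4 adipocyte markers (0.391 to 2.69) had one. None of 5 endothelial, 5 cholangiocyte and 4 lymphocyte markers did, and no set of defining markers was complete. The part of cell makeup in the block's levels was not tested.

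The rest of the IGF system was read through the same kind of transcript, with a feature linked to a gene when it overlapped the gene or lay within 5 kb. The linked feature with the highest mean stood for its gene, whose messenger RNA was not measured. Some genes had several tested features, such as 7 at Igf2r, 5 at Ghr and 3 at Stat5b, and the levels of the others are not given here. Of 28 genes on the list, 9 had a tested feature: Igf1, Igf2r, Insr, Igfbp4, Ghr, Stat5b, Irs1, Igf2bp3 and Grb14. None of the 9 passed in limma's test, fitted across 7413 features with Benjamini-Hochberg adjustment, between high fat and ordinary feed, where 14.6% of all features did (210 higher and 875 lower, or 447 and 366 with median-ratio scaling). None passed for resveratrol against high fat, where 6 of all features did (0.0809%), or for metformin against high fat, where 2 did (0.027%). At an unadjusted limma p under 0.05 the counts were 4, 2 and 2, and limma-voom on the recovered reads called 0 in each. The median difference of the 9 was -0.20 between high fat and ordinary feed, 0.13 for resveratrol and -0.02 for metformin against high fat, beside -0.16, 0.13 and 0.07 for all features.

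Among the hormone and binding-protein transcripts, the one partly in an exon of Igf1 (NONMMUT006717.2, chromosome 10, 87859266 to 87862789) varied most. Igf1 encodes IGF1, which is among the hormones that IGFBP2 binds. The transcript had 1.74, 3.48, 3.12 and 3.47 FPKM on ordinary feed and 19.7, 7.77, 14.1 and 6.16 on high fat. With resveratrol the values were 2.45, 1.23, 15.2 and 12.6, and with metformin 1.46, 10.1, 2.61 and 1.01. All high-fat livers lay above all ordinary-feed livers, while each drug group held both low and high livers. How many of all features separate high fat from ordinary feed in this way was not counted. Nothing is therefore read from such a gap, here or in the list transcripts below. The differences were 1.61 (SE 0.63, limma adjusted p = 0.0954) between high fat and ordinary feed, -0.88 (SE 0.63, adjusted p = 0.486) for resveratrol and -1.66 (SE 0.63, adjusted p = 0.525) for metformin against high fat. With only the 2 groups in the fit, the first of these passed (limma adjusted p = 0.0387).

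The transcript in the Igfbp4 exon (NONMMUT011946.2), from a gene for another IGF-binding protein, was the most abundant of the 9. It had 305, 335, 305 and 337 FPKM on ordinary feed and 419, 363, 447 and 469 on high fat. The groups did not overlap, and the difference of 0.40 (SE 0.14) gave a limma adjusted p of 0.0606. With median-ratio scaling the difference was 0.68 (limma adjusted p = 0.0274), and with a pseudocount of 0.1 it also passed (limma adjusted p = 0.0466). With the drugs it had 350 to 478 FPKM and 357 to 439 FPKM, overlapping high fat.

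Among receptors and their signalling partners, the intronic transcript of Ghr, the growth hormone receptor (NONMMUT022590.2), had 12.5 ± 5.01 FPKM on ordinary feed and 19.1 ± 6.36 on high fat (SD, n = 4 each). Ordinary-feed library 4, at 20.0, and high-fat library 4, at 9.66, each lay with the other group (0.56, SE 0.29, limma adjusted p = 0.199). With median-ratio scaling it was 0.82 (limma adjusted p = 0.0346). The transcript in the exon of Insr, the insulin receptor, had overlapping values in all groups, at 31.1 ± 2.77, 27.2 ± 5.02, 29.8 ± 1.01 and 29.2 ± 3.19 FPKM on ordinary feed, high fat, resveratrol and metformin (SD, n = 4 each). That of Stat5b, which carries the growth hormone signal to the nucleus, had 4.17, 4.18, 4.17 and 2.07 FPKM on ordinary feed and 2.46, 2.94, 1.97 and 1.90 on high fat (-0.47, SE 0.18, limma adjusted p = 0.0899). Without ordinary-feed library 4 that difference was -0.65 (limma adjusted p = 0.0175). With resveratrol it had 2.74 to 4.68 FPKM and with metformin 3.15 to 3.60.

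Among the adaptors, in an intron of Grb14, which encodes an inhibitor of the insulin receptor, the transcript had 2.88 ± 0.397 FPKM on ordinary feed, 1.85 ± 0.725 on high fat, 3.26 ± 0.846 after resveratrol and 1.79 ± 0.484 after metformin (SD, n = 4 each). Its difference between high fat and ordinary feed was -0.48 (SE 0.19, limma adjusted p = 0.102) and passed only without high-fat library 1 (-0.62, limma adjusted p = 0.0387) among the settings tried. The transcript in the exon of Irs1, the docking protein of the insulin receptor, took low and high levels in all groups but high fat. Values of 0.164 to 0.485 FPKM were seen in 6 libraries, and the rest had 2.31 to 11.97. The features linked to Igf2r and Igf2bp3 lay outside those genes, one in Gm23833 beside Igf2r and one partly in an exon of Malsu1, and neither passed.

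**Figure D3:**
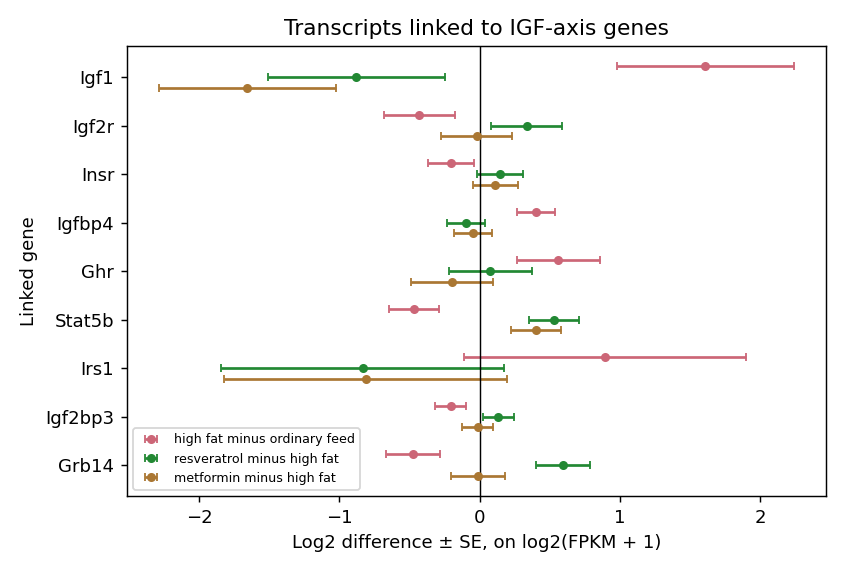
Log2 differences with standard errors, on log2(FPKM + 1), of the 9 transcripts linked to IGF-axis genes in 3 comparisons, from 1 limma fit of 16 libraries. No point passed adjustment, and the difference for Igf1 between high fat and ordinary feed, 1.61, is the farthest to the right.

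Within groups, the block was set against these 9 transcripts after their values had been seen, using each library's deviation from its group mean so that the group pattern took no part. Over 16 libraries the Stat5b transcript had Pearson's r = 0.591 (permutation within groups, 100000 shuffles, p = 0.0209; 0.188 adjusted over the 9) and Spearman's rho = 0.738 (permutation p = 0.00293; 0.0264 adjusted). Without the 2 livers farthest from the median of the block, resveratrol library 1 and high-fat library 2, r was 0.445. The Pearson relation thus did not pass adjustment and the rank relation did. Each statistic was adjusted over its own 9 tests, not over both together. Because the values were known beforehand, nothing is read from the rank relation. The Igf1 transcript had r = -0.465 (permutation p = 0.187; 0.560 adjusted) and rho = -0.426 (permutation p = 0.179; 0.536 adjusted), and r was -0.369 without those livers. The other 7 had r between -0.280 and 0.484, and none passed adjustment.

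The wider hepatic response to insulin and fasting was read from a list of 40 genes, of which 20 had a tested feature. Pck1 had 6 tested features, Hnf4a 5 and Insig2 2, and only the one with the highest mean is given for each gene. Between high fat and ordinary feed 2 rose, where 2.83% of all features were called higher, and 2 fell, where 11.8% were called lower. The transcript 4.67 kb from Pck1, the gene of the enzyme that commits carbon to glucose synthesis, had 4.03, 3.64, 2.94 and 1.99 FPKM on ordinary feed and 0.873, 0.476, 0.589 and 0.709 on high fat, and fell (-1.30, SE 0.14, limma adjusted p = 0.000238). That in the exon of Insig2, which retains the sterol sensor in the endoplasmic reticulum, had 181, 196, 236 and 158 FPKM on ordinary feed and 87.9, 106, 115 and 34.4 on high fat, and fell (-1.28, SE 0.34, limma adjusted p = 0.0257). One of those that rose overlapped Hnf4a, the gene of a liver transcription factor, and its neighbour R3hdml (1.13, SE 0.29, limma adjusted p = 0.0231). It had 6.09 ± 3.46 FPKM on ordinary feed and 13.3 ± 1.77 on high fat (SD, n = 4 each), and the groups did not overlap. The median of the 20 was 0.00, against -0.16 for all features.

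Those calls rested on single libraries in part. Insig2 no longer passed when ordinary-feed library 2 or 3 was left out. Hnf4a did not pass with any of ordinary-feed libraries 1, 2 and 3 omitted, nor on omitting high-fat library 4. Both also failed with no filter and with 2 groups per fit, and Insig2 did so under median-ratio scaling with high-fat library 4 omitted (-0.74, limma adjusted p = 0.0882), while Pck1 passed in every setting tried. None of the 20 passed for either drug against high fat in limma. At an unadjusted p under 0.05 the counts were 2 and 4, and limma-voom called 1 and 0. The one was Pck1 with resveratrol, at 0.79 (SE 0.14, limma adjusted p = 0.0515), whose values of 1.92, 1.71, 1.79 and 2.01 FPKM all lay above the high-fat values. With metformin the Pck1 transcript had 1.32, 0.949, 1.33 and 1.38 FPKM, again above high fat (0.44, SE 0.14, limma adjusted p = 0.420). How many of all features separate either drug group from high fat was not counted, and nothing is read from these gaps.

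The transcripts most like the block were sought among the other 7412 tested features by Pearson's r of log2(FPKM + 1) over 16 libraries. Since these were picked as the extremes, no p is given. The median r was 0.196 and the highest 0.873. Among the 5 highest were NONMMUT142455.1, 4.87 kb from Nsun2 (r = 0.873, rho = 0.776), NONMMUT032212.2 in an intron of Mcc (r = 0.866, rho = 0.721), NONMMUT065447.2 in an intron of Sorbs2, a cytoskeletal adaptor (r = 0.848, rho = 0.835), and NONMMUT047231.2, 4.47 kb from Acnat1, which conjugates fatty acids to amino acids (r = 0.848, rho = 0.800). Without the high-fat libraries 3 and 4, the 2 farthest from the median of the block, these r were 0.801, 0.750, 0.788 and 0.733. The high-fat livers lie below all the others in each of them, so much of each r comes from the difference between that group and the rest. In deviations from group means the same 4 had r of 0.634, 0.497, 0.653 and 0.483.

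On the FPKM scale, 3 of the 4 stayed at or below 5.32 in every library, and the Acnat1 neighbour was nearer to the level of the block. The Acnat1 neighbour had 12.4 ± 1.86 FPKM on ordinary feed, 2.41 ± 0.701 on high fat, 8.41 ± 3.05 after resveratrol and 5.55 ± 0.982 after metformin (SD, n = 4 each). The Sorbs2 transcript had 2.47 ± 0.640, 0.570 ± 0.162, 1.67 ± 0.585 and 1.36 ± 0.506 FPKM in the same order. In each of the 4 every high-fat value lay below the values of each other group. The Acnat1 and Sorbs2 transcripts had their highest mean on ordinary feed, while the block and those at Nsun2 and Mcc had it with resveratrol.

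The 3 most opposite were NONMMUT144074.1, 22.2 kb from Rbfox2, a splicing factor gene (r = -0.897, rho = -0.779), NONMMUT149177.1, 5.58 kb from Bri3bp (r = -0.895, rho = -0.848), and NONMMUT067810.2, partly in an exon of Nrp1, a co-receptor of semaphorins and vascular growth factors (r = -0.872, rho = -0.818). Without high-fat libraries 3 and 4 these were -0.810, -0.837 and -0.813. The Nrp1 transcript had 0.901 ± 0.130 FPKM on ordinary feed, 4.00 ± 1.00 on high fat, 1.61 ± 1.60 after resveratrol and 1.41 ± 0.676 after metformin (SD, n = 4 each). In resveratrol library 3, which had the lowest block level of its group, the Nrp1 transcript was highest of that group, at 3.99 FPKM. Its choice as an opposite favours such a match.

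**Figure D4:**
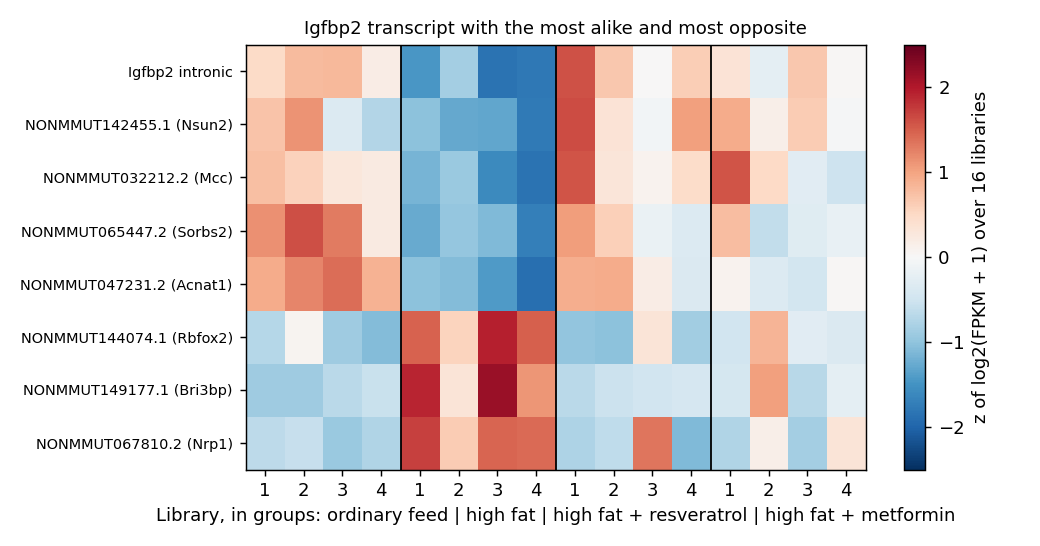
Each row is a transcript and each column a library, with colour giving the z score of log2(FPKM + 1) over 16 libraries. The top row is the Igfbp2 block, followed by 4 of the 5 most alike (r from 0.848 to 0.873) and the 3 most opposite (r from -0.897 to -0.872); the high-fat columns are the lowest in the first 5 rows and hold the highest value of the last 3.

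In deviations from group means alone, the 5 highest r over 16 libraries included those of NONMMUT111591.1 in an intron of Gatad2b (0.812), NONMMUT016415.2 overlapping Arid4b (0.741), NONMMUT031066.2, 6.15 kb from Msh6 (0.719), and NONMMUT025804.2 in an exon of Klhl24 (0.708). The rho were 0.768, 0.687, 0.651 and 0.635, and without resveratrol library 1 and high-fat library 2 the r were 0.747, 0.486, 0.556 and 0.634. None of these 4 was among the 5 most alike over all libraries. The Klhl24 transcript, for one, had its highest mean on high fat, at 7.08 ± 0.604 FPKM against 6.15 ± 0.864 on ordinary feed (SD, n = 4 each).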

How the data were processed

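RNA sequencing measured long non-coding transcripts in 16 livers. The authors computed and deposited the FPKM values. The submitters' processing notes name GRCm38, Bowtie 0.12.2 and Cufflinks 2.1.1. How strand was treated, and which annotation release served, is not given there. Multiplied by length, at least 99.97% of a library's values were whole numbers of 1 smallest unit, to within 0.05 of a read, from which totals and reads were recovered.

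FPKM was summed over the transcripts of each Ensembl gene, giving 49988 features, of which 7413 reached 1 FPKM in at least 4 libraries. Log2(FPKM + 1) values of all 16 libraries were fitted by limma (version 3.58.1, R 4.3.3), using its trend option and 12 residual degrees of freedom. Calls needed a Benjamini-Hochberg adjusted p under 0.05 over all features. P-values measure only the spread between these livers, numbered in sample order. Intronic means within a coding gene of GENCODE M21 and outside its exons. Alternatives were another pseudocount (0.1), no filter, median-ratio scaling, 2 groups per fit, limma-voom on recovered reads and leaving out each library.

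The transcript, lists, tests and naming rule were chosen with earlier results of these data known. The rule named the transcripts inside Igfbp2, called neighbours within 500 kb, all linked IGF-axis features, called features of the insulin and fasting list, and the 5 most alike, 3 most opposite and 5 most alike in deviations from group means. Some transcripts that this rule names are not reported here.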

Additional observations from a re-analysis of the deposited data

Results flagged for a closer look

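In 27 transcripts, each group of 4 livers was examined for a liver far from its other 3, by the gap to the nearest value over the range, against Dixon's critical value at 95%. Of 108 groups 12 held one. Chance gives about 1 in 20 for values that were not selected, a rate that does not apply to the 7 of the 12 in transcripts picked for their likeness or opposition to the Igfbp2 block, 3 of which have the rest of the group listed at 0. Those at Pck1 and Hnf4a were included because they were called for the diet, so the rate does not hold for them either. The total of 12 is therefore not set against it. No group of the Igfbp2 block held one.

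Ordinary-feed library 4 had 20.0 FPKM of the Ghr transcript, against 9.41 to 10.3 in its group, and 2.07 FPKM of that of Stat5b, against 4.17 to 4.18. High-fat library 4 had 2.31 FPKM of the Irs1 transcript, against 7.38 to 7.90. Metformin library 2 had 0.949 FPKM of the Pck1 transcript, against 1.32 to 1.38, 19.9 FPKM of that at Hnf4a, against 12.6 to 13.5, and 1.09 FPKM of that near Rbfox2, against 0.545 to 0.611. It also had the lowest Igfbp2 block of its group, a match favoured for the Rbfox2 neighbour by its choice as an opposite.

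Resveratrol library 3, the lowest of its group for the Igfbp2 block, had 0.855 FPKM of the Rbfox2 neighbour, against 0.358 to 0.407, and 3.99 FPKM of the Nrp1 transcript, against 0.596 to 0.984. High-fat library 2, the highest of its group for the block, had 1.76 FPKM of the Gatad2b transcript, against 0.0356 to 0.276, and 1.52 FPKM of that at Arid4b, listed at 0 in the other 3. The Arid4b transcript had 1.56 FPKM in resveratrol library 1 and was again listed at 0 in the rest of that group. The Msh6 neighbour had 0.151 FPKM in ordinary-feed library 2 and was listed at 0 in the rest. These transcripts were all picked by their likeness or opposition to the block, which favours matches with its extreme livers. Nothing is read from those matches.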

How the results depend on the processing

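The block's difference between high fat and ordinary feed ran from -2.99 (limma-voom) to -2.21 (median-ratio scaling, high-fat library 4 omitted) over all settings, and from -2.72 to -2.32 with each library left out. Leaving out each library gave 2.30 to 2.94 for resveratrol and 1.83 to 2.27 for metformin against high fat, 0.28 to 0.92 for resveratrol against metformin, -0.16 to 0.47 for resveratrol and -0.64 to -0.27 for metformin against ordinary feed. Only resveratrol against ordinary feed changed sign, to -0.16 without resveratrol library 1.

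High fat against ordinary feed gave 1085 calls over all features, 210 of them higher. There were 274 without a filter, 449 with 2 groups per fit, 526 under median-ratio scaling once high-fat library 4 was omitted, and 527 to 1175 with each library left out (527 without ordinary-feed library 2, 554 without library 3 of that group, and 719 and 599 without libraries 2 and 4 of the high-fat group). Against high fat, the 6 calls for resveratrol became 2 without a filter and 13 with median-ratio scaling (1 to 57 with each library left out, 57 without resveratrol library 4). The 2 calls for metformin became 4 without a filter, 8 with median-ratio scaling and 7 when high-fat library 4 was also omitted (1 to 7 with each library left out). Median-ratio scaling alone gave 813 calls for the diet comparison, 447 higher. Of the 9 IGF-axis features, 1 passed for the diet with the pseudocount of 0.1 (Igfbp4), 2 with median-ratio scaling, whether or not high-fat library 4 was kept, (Igfbp4 and Ghr), 1 with 2 groups per fit (Igf1), and 0 to 1 with each library left out. Of the 20 insulin and fasting features, 4 were called there, against 1 without a filter or with 2 groups per fit, 7 with median-ratio scaling, and 1 to 5 with each library left out. For resveratrol the count rose from 0 to 1 (Pck1) with the pseudocount of 0.1 and with limma-voom, and was 0 to 1 with each library left out. The cause was not tested. No other listed transcript within 500 kb passed the filter and none lay in the gene, so these gave no count. No paired analysis was made because the labels name no pairing of livers between groups.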
